A study of Mus musculus with 6 samples.

Results

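The 8 genes described here make, cut or bind hyaluronan and were chosen by name: the synthases Has1, Has2 and Has3, the hyaluronidases Hyal1 and Hyal2, the receptor Cd44, the proteoglycan Vcan and the secreted protein Tnfaip6. All 8 were found, each at 1 of the 36812 loci with a gene name and a usable value, and all 8 passed the filter on low counts that left 15673 loci for testing. RNA had been sequenced from cultured mouse embryonic fibroblasts, cells grown out of embryos in DMEM with fetal calf serum and antibiotics. There were 3 STC1-/- libraries (KO) and 3 STC1+/+ libraries (WT), both given a C57BL/6 background. STC1-/- cells lack a working Stc1 gene, which encodes the secreted glycoprotein stanniocalcin-1. The labels state neither the embryonic age nor which part of Stc1 was disrupted. Nor do they say that each library had its own embryo or culture, so p-values measure the spread between these libraries, which may be technical.

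Hyaluronan is a long, unbranched sugar chain of the extracellular matrix. The synthases sit in the plasma membrane, join UDP-glucuronic acid and UDP-N-acetylglucosamine on the cytoplasmic side, and push the growing chain out of the cell. Outside, Cd44 holds the chain at the cell surface, versican (Vcan) binds along it and swells the coat around the cell, and Tnfaip6 (also called TSG-6) transfers protein heavy chains onto it. Hyal2 cuts long chains at or near the cell surface and Hyal1 degrades the pieces in lysosomes. Fibroblasts are a main source of hyaluronan in connective tissue.

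Library depth ran from 21882092 to 44552311 estimated fragments in KO and from 42509592 to 71488701 in WT. Stc1 itself had 6, 0 and 0 fragments in KO replicates 1 to 3, against 2245, 291 and 368 in WT replicates 1 to 3. For this gene edgeR gave an unadjusted p of 0.00313 and an adjusted p of 0.763, and DESeq2 an adjusted p of 3.92e-05. All 11 fibroblast markers examined were detected in every library. Their summed level was 6046 to 9731 CPM in KO and 11742 to 31591 CPM in WT, and 4 had positive and 7 negative log2 fold changes. In edgeR 2 had an unadjusted p under 0.05, both lower in KO, against 3.87% of all tested loci. KO and WT values did not overlap for 3, all lower in KO, against 10.6% of all tested loci. edgeR and DESeq2 each called 0. CPM are fragments divided by the effective library size. Macrophage markers were present as well. All 17 loci of that list had fragments in all 6 libraries and all 17 were highest in WT replicate 3, and their summed level was 546 to 2063 CPM in KO and 418 to 14563 CPM in WT. DESeq2 called 4 of the 17 as lower in KO, against 0.322% of all loci called in either direction, and edgeR called 0. Endothelial markers summed to 23.9 CPM or less in every library and epithelial markers to 11.3 CPM or less. Smooth muscle markers summed to 2612 to 3999 CPM in KO and 3578 to 9135 CPM in WT, and 7 of 7 had negative log2 fold changes. Of these, 3 had an edgeR unadjusted p under 0.05, against 3.87% of all tested loci, and edgeR and DESeq2 called 0. Cartilage markers summed to 10.9 to 13.9 CPM in KO and 21.2 to 36.6 CPM in WT. Of the 21.2 CPM in WT replicate 1, Sox9 held 20.7 CPM. DESeq2 called 2 of the 6, Col2a1 and Comp, as lower in KO, against 0.322% of all loci called in either direction. Neither passed the filter on low counts used for edgeR, and neither was raised in WT replicate 1. There Comp stood at 0.0708 CPM, below its KO range of 0.155 to 0.188 CPM. Col2a1 stood at 0.156 CPM, within its KO range of 0.107 to 0.222 CPM. In bulk RNA, fewer cells of a type and less RNA per cell cannot be told apart.

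Expression per length, as the deposited FPKM (fragments per unit of transcript length and of library size), put the members in an order that was firm at both ends. Cd44 was the most abundant at 183 FPKM over the 6 libraries, with a range of 123 to 244 that did not overlap any other member. Vcan averaged 49.4 FPKM, Hyal2 28.3 FPKM, the Hyal1 locus 22.2 FPKM and Has2 12.3 FPKM. The ranges of each neighbouring pair from Vcan down to Has1 overlapped. Tnfaip6 averaged 2.76 FPKM and the Has1 locus 1.53 FPKM. Has3 was lowest at 0.227 FPKM, with a range of 0.148 to 0.296 that lay below every other member. Cd44 ranked first and Has3 last in each of the 6 libraries.

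2 of these loci hold more than the gene they are named for here. On mm10 the files place the Has1 locus on the minus strand of chromosome 17 from 17827806 to 17855194, whereas GENCODE M21 ends the Has1 gene at 17843323. The longer locus also carries the name mmu-let-7e. By its transcript identifier that name belongs to Gm25927, a small RNA annotated on the minus strand from 17830343 to 17830459, and not to Mirlet7e, which lies on the plus strand from 17830352 to 17830444. No value for let-7e was therefore read from it. The Hyal1 locus, on the plus strand of chromosome 9 from 107576620 to 107587359, joins Hyal1 with Nat6 (Naa80), an acetyltransferase gene, and Hyal3, another hyaluronidase gene, so their fragments cannot be told apart. Hyal2 is a separate locus just before it, from 107569117 to 107572776. Has2 lies on chromosome 15 from 56665627 to 56694539 (minus strand), Has3 on chromosome 8 from 106870242 to 106884566 (plus), Cd44 on chromosome 2 from 102811138 to 102902236 (minus), Tnfaip6 on chromosome 2 from 52038009 to 52056686 (plus) and Vcan on chromosome 13 from 89655216 to 89743143 (minus). All 8 are protein-coding genes in the annotation.

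RefSeq (GRCm38.p6) promoters were on hand for 6 members: Has1, Hyal1, Hyal2, Cd44, Vcan and Tnfaip6. Those of 4 are shown because these loci stood at an extreme in WT replicate 3, the library in which Has1, Cd44 and Vcan were lowest and the Hyal1 locus was highest in CPM. In FPKM the Has1 locus was lowest in WT replicate 2, at 0.821 FPKM beside 1.02 FPKM in WT replicate 3. Each is the 250 bases before the annotated start, 5′ to 3′ on the gene's strand, and capitals mark every match on either strand to 4 short motifs spelled out after the sequences.
Cd44, chr2:102901666-102901915, minus strand: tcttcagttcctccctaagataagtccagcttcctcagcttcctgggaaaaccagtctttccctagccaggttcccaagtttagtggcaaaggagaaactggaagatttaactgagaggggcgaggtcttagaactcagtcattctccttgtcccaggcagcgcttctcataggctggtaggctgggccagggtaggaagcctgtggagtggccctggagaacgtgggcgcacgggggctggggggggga
Vcan, chr13:89742513-89742762, minus strand: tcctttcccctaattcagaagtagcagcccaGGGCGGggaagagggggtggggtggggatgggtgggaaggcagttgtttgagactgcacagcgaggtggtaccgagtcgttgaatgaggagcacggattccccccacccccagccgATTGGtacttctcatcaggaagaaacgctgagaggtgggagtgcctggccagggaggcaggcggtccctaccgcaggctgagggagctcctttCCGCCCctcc
Has1, chr17:17855189-17855438, minus strand: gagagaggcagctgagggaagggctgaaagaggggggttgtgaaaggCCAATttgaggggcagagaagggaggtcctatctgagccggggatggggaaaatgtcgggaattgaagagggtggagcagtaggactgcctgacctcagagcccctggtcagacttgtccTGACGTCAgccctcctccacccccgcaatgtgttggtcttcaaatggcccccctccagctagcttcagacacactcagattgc
Hyal1, chr9:107576700-107576949, plus strand: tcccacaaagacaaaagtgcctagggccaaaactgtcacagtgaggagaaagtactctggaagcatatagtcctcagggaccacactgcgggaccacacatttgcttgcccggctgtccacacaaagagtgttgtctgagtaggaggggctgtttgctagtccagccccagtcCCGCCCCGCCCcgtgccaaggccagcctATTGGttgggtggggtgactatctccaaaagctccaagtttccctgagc
CCAAT, a box bound by the factor NF-Y, was in 4 of the 6 promoters and in 33.8% of 32851 mouse promoter windows of that length. GGGCGG, a GC box of the kind Sp1 binds, was also in 4 of 6, against 32.7% of all. It matched at 2 overlapping positions before Hyal1. TGACGTCA, the cyclic AMP response element, was found only before Has1 among the 6 and in 1.55% of all windows. TGANTCA, an AP-1 type site, was found only before Tnfaip6 among the 6, at bases -142 to -136 from the start, and in 6.75% of all. None of the 4 motifs matched in the Cd44 window. The Vcan and Hyal1 windows both hold CCAAT and GGGCGG, as does the Tnfaip6 window, which is not shown. The Cd44, Vcan and Hyal1 windows lie inside the loci as the files bound them, upstream of the RefSeq starts.

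The question the design poses is whether loss of Stc1 changes these levels, and no member differed between the genotypes beyond the spread of the libraries. edgeR's quasi-likelihood test called 0 of the 8 at a Benjamini-Hochberg adjusted p under 0.05, where it called 0% of the 15673 loci, and 0 of the 8 had an unadjusted p under 0.05, against 3.87% of all loci (1.6% higher and 2.27% lower in KO). DESeq2 also called 0 of the 8 and gave 0 an unadjusted p under 0.05, against 0.322% of loci called and 5.2% at the unadjusted threshold. Limma on log2(FPKM + 0.1) called 0 of the 8 and 0.00638% of all loci. The KO and WT values of every member overlapped, whereas KO and WT were apart at 10.6% of all tested loci, with KO above WT at 5.18% and below it at 5.44%. The fold changes of KO over WT were positive for 6 members and negative for 2, against 44.4% positive among all tested loci, with a median log2 of 0.22 beside -0.05 for all tested loci. These figures depended on single libraries. Without WT replicate 1, 7 members were positive (median 0.48), and without WT replicate 3, 5 were (median 0.08). Without KO replicate 1 and WT replicates 2 and 3, the richest in macrophage markers, 3 were positive. The median was then -0.21, beside 0.01 for all tested loci.

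**Figure D1:**
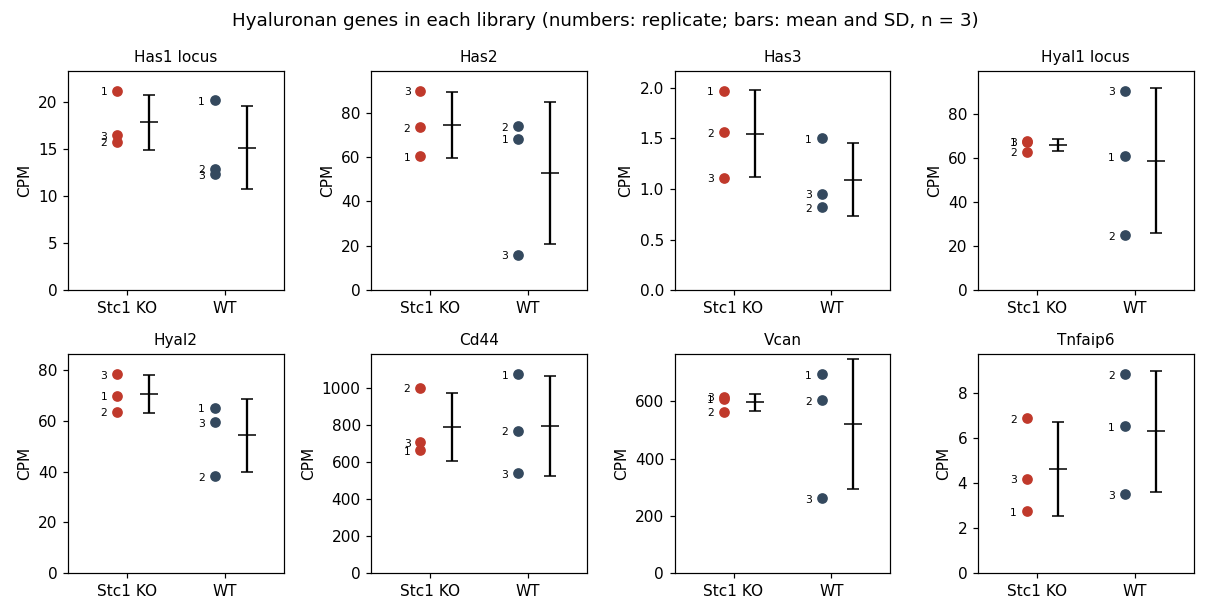
CPM of the 8 hyaluronan loci in each library, Stc1 KO at the left and WT at the right of each panel. Points are libraries numbered by replicate, bars are the mean and SD of 3 libraries, and the KO and WT points overlap in every panel.

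Has2, the main synthase of mesenchymal cells in the mouse, stood at 60.3, 73.4 and 89.9 CPM in KO replicates 1 to 3, against 68.3, 73.9 and 15.9 CPM in WT replicates 1 to 3. WT replicate 3 was far below the other 5 libraries, which lay close together. The means were 74.5 ± 14.8 CPM in KO and 52.7 ± 32.0 CPM in WT (SD, n = 3 each), and the log2 fold change was 0.50 with a 95% interval of -0.87 to 1.86 (edgeR adjusted p = 0.791). Without WT replicate 3 it was 0.07. The authors' deposited table gives mean FPKM values of 14.5 for KO and 10.0 for WT with a q-value of 1. Has2as, an antisense RNA that overlaps the 5′ part of Has2 on the plus strand, had 18 to 49 fragments in KO and 19 to 77 in WT, and was lowest in CPM in WT replicate 3, as Has2 was. The kit marks strand, but how the counting used it is not stated, so reads of the pair may not be fully separated.

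The Has1 locus stood at 21.2, 15.8 and 16.5 CPM in KO, against 20.2, 12.9 and 12.3 CPM in WT. KO replicate 1 and WT replicate 1 were the high libraries, and the genotypes overlapped. Its log2 fold change was 0.24, with an interval of -0.41 to 0.88. Has3, a synthase best known from epithelium, stood at 1.97, 1.56 and 1.11 CPM in KO, against 1.50, 0.820 and 0.952 CPM in WT. These values rest on 42 to 58 fragments in KO and 35 to 106 in WT, and only WT replicate 1 reached into the KO range. Has3 had a log2 fold change of 0.49, with an interval of -0.48 to 1.46 (edgeR adjusted p = 0.763).

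Per length, Has2 made up most of the synthase RNA in every library. Its share of the summed FPKM of the 3 synthases was 80.0%, 90.3% and 94.0% in KO and 81.8%, 93.7% and 71.8% in WT, with means of 88.1 ± 7.24% in KO and 82.4 ± 10.9% in WT (SD, n = 3 each). The lowest share, in WT replicate 3, came with the lowest summed synthase level, 4.31 FPKM, beside 14.5 to 18.8 FPKM in the other 5 libraries. The share also depends on how fragments of the Has1 locus were spread over its transcripts. The FPKM given per scaled fragment differed by up to 2.35 times between libraries for the Has1 locus, by up to 1.35 times for Has3 and it did not differ to 2 decimals for Has2, Hyal2 and Tnfaip6. WT replicate 1 and KO replicate 1 had the highest FPKM per fragment at the Has1 locus, and KO replicate 3 had the lowest, at 0.42 of the highest. The Has1 values in CPM spread 1.73-fold over the libraries.

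Hyal2, the surface-linked hyaluronidase, stood at 69.8, 63.4 and 78.3 CPM in KO, against 65.0, 38.1 and 59.4 CPM in WT. The groups overlapped only through WT replicate 1 and KO replicate 2, and WT replicate 2 was lowest. Hyal2 had the lowest p of the 8 members, with means of 70.5 ± 7.47 CPM in KO and 54.2 ± 14.2 CPM in WT (SD, n = 3 each) and a log2 fold change of 0.38, interval -0.18 to 0.94 (edgeR unadjusted p = 0.151, adjusted p = 0.763). Without WT replicate 2 the log2 fold change was 0.20.

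The Hyal1 locus stood at 67.7, 63.0 and 67.5 CPM in KO, against 61.0, 25.1 and 90.7 CPM in WT. The KO libraries lay within the WT range, which ran from the lowest to the highest value of the 6. For this locus the log2 fold change was 0.16, with an interval of -0.91 to 1.24, and it was -0.18 without WT replicate 2 and 0.62 without WT replicate 3. Hyal2 had 1.33 ± 0.166 times the FPKM of the Hyal1 locus in KO and 1.40 ± 0.533 times in WT (SD, n = 3 each). WT replicate 3, at 0.892, was the library with more FPKM from the Hyal1 locus than from Hyal2.

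Cd44, the main hyaluronan receptor and also a leukocyte adhesion molecule, stood at 663, 1002 and 706 CPM in KO, against 1075, 769.9 and 541 CPM in WT. The highest and the lowest library were both WT. The means were 790.3 ± 184 CPM in KO and 795 ± 268 CPM in WT (SD, n = 3 each), and the log2 fold change was -0.01 with an interval of -0.77 to 0.76 (edgeR adjusted p = 0.995). Its sign was not stable: it was positive with upper quartile scaling (0.00 after rounding) and 0.27 without WT replicate 1.

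Vcan, the large proteoglycan that binds hyaluronan through its N-terminal domain, stood at 609.8, 564 and 617 CPM in KO, against 696, 604 and 263 CPM in WT. The KO libraries were close to each other and to WT replicates 1 and 2, and WT replicate 3 was low. The log2 fold change was 0.20, with an interval of -0.70 to 1.09 (edgeR adjusted p = 0.876), and without WT replicate 3 it was -0.12. FPKM of Cd44 exceeded those of Vcan by 2.78 to 4.64 times in KO and by 3.22 to 5.18 times in WT.

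Tnfaip6, an inflammation-induced gene in many cell types, stood at 2.77, 6.89 and 4.21 CPM in KO, against 6.54, 8.85 and 3.52 CPM in WT. These values rest on 59 to 257 fragments in KO and 170 to 462 in WT, and KO replicate 1 was lowest and WT replicate 2 highest. The means were 4.63 ± 2.09 CPM in KO and 6.30 ± 2.68 CPM in WT (SD, n = 3 each), and the log2 fold change was -0.44 with an interval of -1.62 to 0.74 (edgeR adjusted p = 0.787). It was -0.11 without WT replicate 2 and -0.84 without KO replicate 2.

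**Figure D2:**
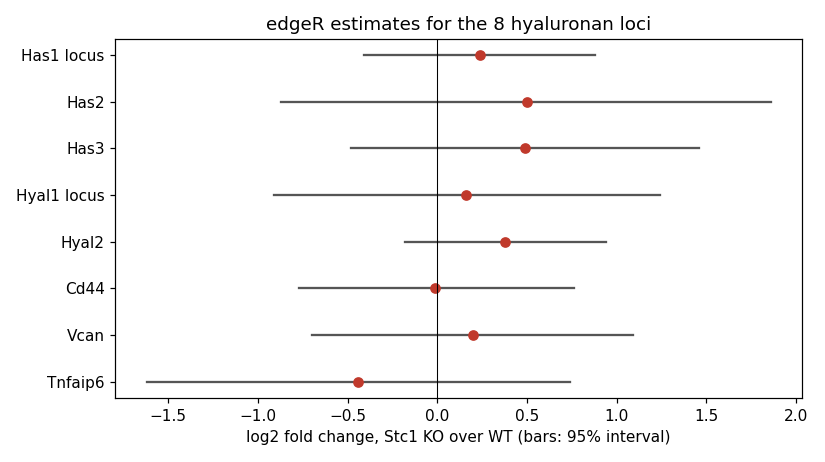
Log2 fold change of Stc1 KO over WT for the 8 loci from edgeR, with points for the estimates and bars for 95% intervals. All 8 intervals include 0; the shortest is that of Hyal2 (-0.18 to 0.94) and the longest that of Has2 (-0.87 to 1.86).

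The intervals show what these libraries can resolve. For Hyal2 the upper bound is a log2 change of 0.94 and for Vcan 1.09, whereas for Has2 it is 1.86 and the lower bound for Tnfaip6 is -1.62. A p above the threshold thus does not show that the genotypes have the same level.

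For every member, single libraries within KO or within WT lay farther apart than the KO and WT means did. The lowest and the highest library were both WT for Cd44, Vcan and the Hyal1 locus, and of different genotype for the other members. In CPM, WT replicate 3 had the lowest level of Has2, Vcan, Cd44 and the Has1 locus and the highest of the Hyal1 locus. Relative to each gene's mean over the 6 libraries, it stood at -1.82 for Has2, -1.02 for Vcan, -0.51 for Cd44 and -0.40 for the Has1 locus on the log2 CPM scale, and at 0.63 for the Hyal1 locus. WT replicate 2 had the lowest level of Hyal1, Hyal2 and Has3, at -1.22, -0.68 and -0.59, and the highest of Tnfaip6, at 0.81. The SD of Has2 over the 6 libraries, 0.91, was larger than that of 84.0% of the tested loci, and the SD of the Has1 locus, 0.32, was larger than that of 42.6%.

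Macrophage marker RNA differed between the same libraries. The mean of the 17 marker loci was 5.30, 2.47 and 2.85 log2 CPM in KO replicates 1 to 3 and 1.16, 6.07 and 9.08 log2 CPM in WT replicates 1 to 3. WT replicate 3 was thus at the top of that list. WT replicate 2 and KO replicate 1 came next, and relative to the gene means they stood at 0.39 and 0.10 for Has2 and at 0.18 and 0.19 for Vcan. KO replicates 2 and 3 and WT replicate 1 stood at 0.38, 0.67 and 0.28 for Has2. For Vcan they stood at 0.08, 0.21 and 0.38. The gene means include the low WT replicate 3, so every other library stood above them for both genes. The fibroblast list averaged 7.80, 8.65 and 8.40 log2 CPM in KO and 8.47, 9.47 and 8.82 log2 CPM in WT, so WT replicate 3 was not low in this mean. Its members did not move together. Prrx1 and Twist1 were lowest in WT replicate 3, at 259.9 and 16.4 CPM, whereas Lum was highest there, at 226 CPM. Smooth muscle markers averaged 6.51, 6.47 and 6.77 log2 CPM in KO and 7.12, 8.63 and 7.10 log2 CPM in WT, and WT replicate 2, the extreme library for Hyal1, Hyal2, Has3 and Tnfaip6, was highest in them. The part of these cell type markers in the members' values was not tested. With the macrophage marker mean as a covariate, edgeR gave log2 fold changes of 0.22 for Has2, 0.04 for Vcan, -0.21 for Cd44 and -0.72 for Tnfaip6, and 0 of the 8 members had an unadjusted p under 0.05. Without the 3 libraries richest in the markers (KO replicate 1 and WT replicates 2 and 3) they were 0.26, -0.24, -0.33 and -0.24 for these genes in turn, again with 0 members at that threshold, the lone WT library being assumed to vary like the KO libraries.

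**Figure D3:**
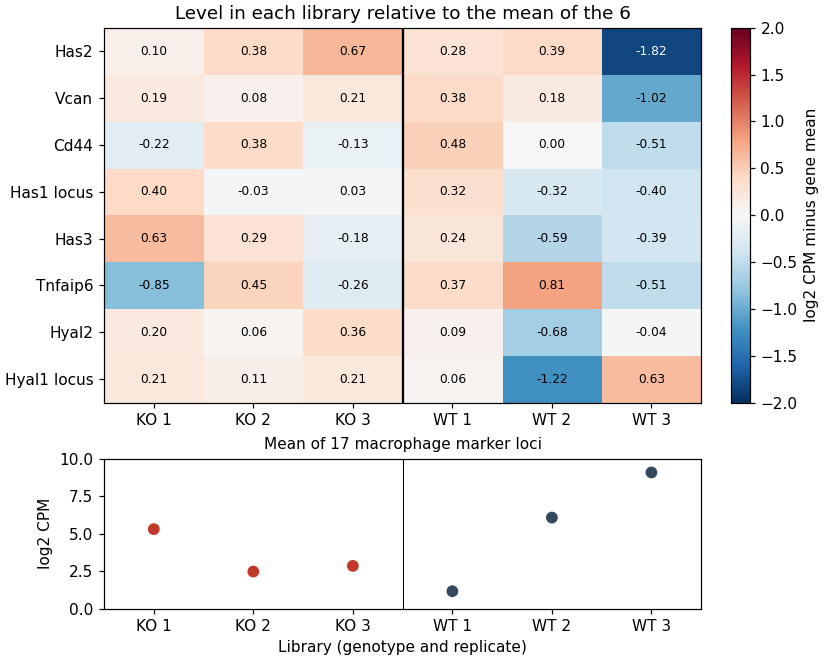
Top, log2 CPM of each locus minus its mean over the 6 libraries, KO in the left 3 columns and WT in the right 3, red above and blue below the mean. Bottom, the mean log2 CPM of 17 macrophage marker loci in the same libraries. WT 3, with the highest marker mean (9.08), has the lowest Has2 value (-1.82). WT 2 and KO 1, next in marker mean (6.07 and 5.30), have Has2 values of 0.39 and 0.10. KO 2, KO 3 and WT 1 have Has2 values of 0.38, 0.67 and 0.28. The gene mean includes the low WT 3.

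For each member, the 2 genes nearest in pattern were found among 12476 loci whose log2 CPM averaged 1 or more, by the root mean square difference of centred log2 CPM over the 6 libraries. The nearest to Has2 were Gm12602, a noncoding RNA gene, at 0.07 and Il1rl1, which encodes the interleukin-33 receptor, at 0.13. Those for Vcan were Kalrn (0.09) and Zfp239 (0.09), and those for Cd44 were Ydjc (0.08) and Cask (0.08). The Hyal1 locus was nearest to Dpp7 (0.04) and Atp6v1f (0.06), which encode a lysosomal peptidase and a subunit of the proton pump that acidifies lysosomes. Hyal2 was nearest to Usp20 (0.06) and 1190007F08Rik (0.06), the Has1 locus to Mttp (0.07) and Acvrl1 (0.08), Has3 to Gm16184 (0.07) and Triobp (0.09), and Tnfaip6 to Runx1t1 (0.11) and Rpl34 (0.13). How close a match other patterns would find was not tested.

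The wider pathway was examined in 7 lists by role, which held 53 loci beside the members. Of these, 39 passed the filter, 17 with positive and 22 with negative log2 fold changes and a median of -0.15. edgeR and DESeq2 each called 0 of them. In edgeR 4 of the 39 (10.3%, against 3.87% of all loci) had an unadjusted p under 0.05, 3 higher and 1 lower in KO, and in DESeq2 7 of 50 did, where 5.2% of all loci passed that threshold. Groups did not overlap for 6 of the 39 (15.4%, against 10.6% of all loci), 4 higher and 2 lower in KO. Over the alternatives the number at an unadjusted p under 0.05 in edgeR or limma ran from 1 to 10, and 0 were called in each. The 10 came without WT replicate 1, when 18.4% of all loci passed that threshold.

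Of the 9 loci of precursor synthesis, the enzymes that make the UDP sugars, 6 had positive fold changes (median 0.13). Ugdh, which makes UDP-glucuronic acid, stood at 351, 259 and 255 CPM in KO, against 252, 189 and 247 CPM in WT. The groups did not overlap, but KO replicates 2 and 3 were close to WT replicate 1. The log2 fold change was 0.33, interval -0.17 to 0.83 (edgeR adjusted p = 0.763), and it was 0.16 without KO replicate 1 and 0.03 without the 3 libraries richest in macrophage markers. The next lowest p-values were those of Pgm3 and Ugp2, with log2 fold changes of 0.26 and 0.23.

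Of 9 further loci of hyaluronan breakdown 5 were tested, and 4 had negative fold changes. Tmem2, a cell surface hyaluronidase, had a log2 fold change of 0.29. Cemip, listed under its older symbol 9930013L23Rik, which encodes a hyaluronan-binding protein needed for hyaluronan breakdown in fibroblasts, stood at 203, 208 and 335 CPM in KO, against 341, 201 and 217 CPM in WT. The lysosomal exoglycosidase genes Hexa and Gusb were both highest in WT replicate 3, at 1152 and 567 CPM, and for Gusb the log2 fold change was -0.62. Hyal4, Hyal5 and Spam1 had 0 fragments in every library.

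Among 7 other hyaluronan receptors, Layn, which encodes the membrane lectin layilin, stood at 86.0, 63.3 and 73.7 CPM in KO, against 60.4, 44.5 and 43.0 CPM in WT. Every KO library was above every WT library. The means were 74.4 ± 11.3 CPM in KO and 49.3 ± 9.64 CPM in WT (SD, n = 3 each), and the log2 fold change was 0.59 with an interval of 0.11 to 1.08 (edgeR unadjusted p = 0.0246, adjusted p = 0.763). The log2 fold change was 0.18 without the 3 libraries richest in macrophage markers. Stab1, a scavenger receptor of macrophages and some endothelium, stood at 10.1, 0.992 and 1.44 CPM in KO, against 0.439, 91.2 and 429.9 CPM in WT, and its 3 highest libraries were those richest in macrophage markers. Hmmr, a hyaluronan receptor and mitotic spindle gene, had a log2 fold change of -0.85, with 86.8 CPM in WT replicate 2 and 11.2 to 35.7 CPM elsewhere.

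Only 2 of 7 hyalectan and link protein loci passed the filter. Hapln4, a link protein gene known mainly from brain, stood at 5.26, 5.39 and 3.26 CPM in KO, against 3.47, 1.87 and 1.92 CPM in WT (log2 fold change 0.93, edgeR adjusted p = 0.763). Hapln1 was at 0.670 CPM or less in every library, with a log2 fold change of -0.20.

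Among 3 tested loci of heavy-chain donors and Tnfaip6 partners, Ptx3 had the lowest p. It encodes pentraxin-3, which joins Tnfaip6 in the hyaluronan coat of the egg's cumulus cells in the mouse. Ptx3 stood at 332, 114 and 132 CPM in KO, against 71.8, 88.3 and 76.3 CPM in WT. All KO libraries were above all WT libraries, with KO replicate 1 far above the rest. The log2 fold change was 1.29 with an interval of 0.22 to 2.36 (edgeR unadjusted p = 0.0256, adjusted p = 0.763), and without KO replicate 1 it was 0.64. KO replicate 1 was also the KO library with the most macrophage marker RNA, and the lowest in Tnfaip6. WT replicates 2 and 3 had higher macrophage marker means (6.07 and 9.08 log2 CPM, beside 5.30 in KO replicate 1) and stood at 88.3 and 76.3 CPM for Ptx3. The part of macrophage content in the Ptx3 values was not tested. Itih5 and Itih2, which encode heavy chains of inter-alpha-inhibitors, had log2 fold changes of -0.60 and -0.45, and that of Itih5 was -0.12 without the 3 libraries richest in macrophage markers.

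Of 8 loci of proteins that link Cd44 to the cytoskeleton or cleave it, 4 had positive and 4 negative fold changes. Ezr, which encodes the linker ezrin, stood at 70.5, 71.5 and 72.5 CPM in KO, against 59.8, 50.6 and 48.5 CPM in WT. The KO values were nearly equal and all above the WT values, and the log2 fold change was 0.43 with an interval of 0.10 to 0.76 (edgeR unadjusted p = 0.0179, adjusted p = 0.763). Its relative Rdx, radixin, stood at 147, 143 and 142 CPM in KO, against 148, 223 and 160.4 CPM in WT. Its log2 fold change was -0.30, and it was -0.09 without WT replicate 2 and -0.06 without the 3 libraries richest in macrophage markers, when that of Ezr was 0.27. Adam10, a sheddase of Cd44, had a log2 fold change of -0.25.

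Of 5 tested proteases that cleave versican, Adamts5 stood at 32.0, 18.2 and 15.2 CPM in KO, against 14.9, 110.4 and 128 CPM in WT. WT replicates 2 and 3 were high and WT replicate 1 lay below every KO library. The log2 fold change was -1.96 with an interval of -3.88 to -0.03 (edgeR unadjusted p = 0.0474, adjusted p = 0.763), and it was 0.16 without the 3 libraries richest in macrophage markers. Adamts1 and Adamts4 had log2 fold changes of -0.81 and 0.86.

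**Figure D4:**
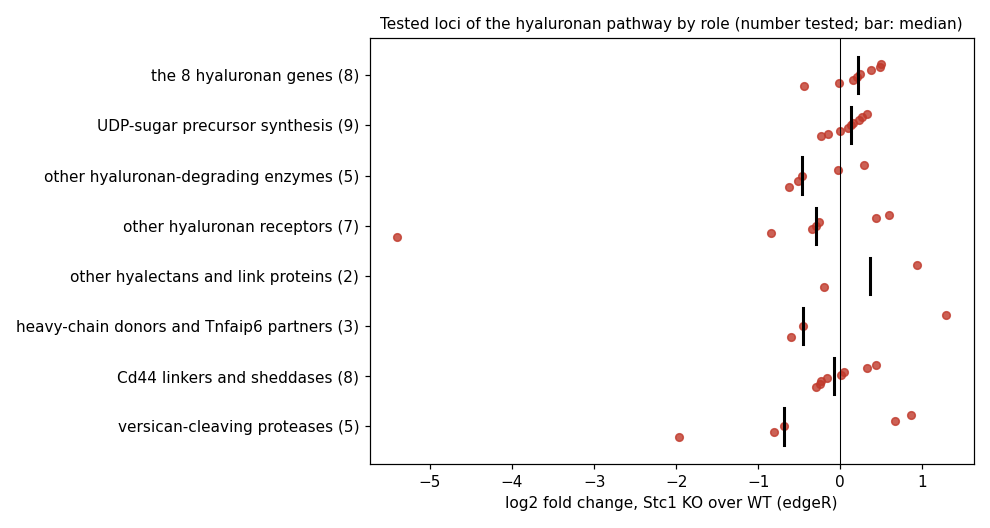
Log2 fold change of Stc1 KO over WT (edgeR) for each tested locus of the hyaluronan pathway, grouped by role, with the number tested in brackets and a bar at each median. Most loci lie within 1 of zero; Stab1 (-5.40) and Adamts5 (-1.96) lie farthest to the left and Ptx3 (1.29) farthest to the right.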

How the data were processed

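Polyadenylated RNA libraries were prepared with a stranded kit, per the labels' protocols. The submitters' processing notes name CASAVA 1.8.2, TopHat2 2.0.6, Cuffdiff 2.0.1 and the mm10 build, with no role or order. Per the file headers, the authors gave each locus an estimated count of fragments and an FPKM value. Of the deposited estimated counts above 0, 24.2% were not whole, so all were rounded before testing. The authors' deposited table also holds mean FPKM, a log2 fold change, p-values and q-values (its fold change column keeps a placeholder where infinite). Loci without a gene name (0.507% to 0.555% of fragments) and 16 loci marked HIDATA were left out.

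The fit used all 6 libraries with genotype as the only term: a robust quasi-likelihood model in edgeR 4.0.16 (R 4.3.3) after filterByExpr and TMM scaling, with Benjamini-Hochberg adjustment over 15673 loci. The 95% intervals were computed from the F statistic. Alternatives used DESeq2 1.42.0 and limma 3.58.1 (voom, or log2(FPKM + 1) and log2(FPKM + 0.1)), other scalings and filters, and subsets of libraries. Simulated counts with known changes were used to check the code. The members and lists were chosen with earlier results of these data known. Named beside the members were up to 3 genes per pathway list with the lowest p and the 2 genes nearest in pattern to each member. 1 gene that this rule names is not reported here. Has2as, Hexa, Cemip, Col2a1, Comp and Sox9 were named after their values were seen. Replicate numbers follow accession order and pair nothing. Intervals cover the spread between libraries.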

Additional observations from a re-analysis of the deposited data

How the results depend on the processing

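Over 19 alternatives to the edgeR test, 0 of the 8 hyaluronan genes and 0 of the other pathway loci were called, and 0 members had an unadjusted p under 0.05 in any. The lowest adjusted p of a member was 0.306, for Has1 without WT replicate 1. Of 152 member fold changes, 139 kept the direction of the edgeR estimate and 13 did not. Cd44 turned positive with upper quartile scaling (0.00, rounded), limma-voom (0.03), sample quality weights (0.07) and limma on both FPKM scales (0.07 each). Without the 3 libraries richest in macrophage markers Has1 was -0.33, Has3 -0.17 and Vcan -0.24. Leaving out 1 library gave log2 fold changes of -0.22 to 0.27 for Cd44, -0.18 to 0.62 for Hyal1, -0.12 to 0.46 for Vcan, 0.07 to 0.83 for Has2, 0.09 to 0.50 for Has1, 0.29 to 0.80 for Has3, 0.20 to 0.54 for Hyal2 and -0.84 to -0.11 for Tnfaip6. The cause was not tested. The mean Has2 share of synthase FPKM ran from 85.1% to 92.1% in KO and from 76.8% to 87.7% in WT, and Hyal2 over the Hyal1 locus from 1.23 to 1.38 in KO and from 1.12 to 1.65 in WT. No paired analysis was possible because the labels give no number shared between the genotypes. With 3 libraries each, only large changes can be resolved for the genes that vary most, such as Has2 and Tnfaip6.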
